A study of Homo sapiens with 18 samples.

Results

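The EGF receptor family and its ligands are described here by the open chromatin at 8 of their genes in T47D, a human breast cancer cell line with progesterone receptor. Regions were taken from 1 table of accessible regions if they overlapped 1 of 7 windows of the hg19 build around EGFR, ERBB2, ERBB3, ERBB4, ERRFI1, EREG with AREG, and HBEGF. That gave 129 of 132604 regions. The EGFR window (chromosome 7, 55.03 to 55.33 Mb) held 27 regions, the ERBB2 window (chromosome 17, 37.80 to 37.93 Mb) 15, and the ERBB3 window (chromosome 12, 56.44 to 56.53 Mb) 14. The ERBB4 window (chromosome 2, 212.19 to 213.45 Mb) held 28, the ERRFI1 window (chromosome 1, 8.02 to 8.25 Mb) 25, the shared EREG and AREG window (chromosome 4, 75.18 to 75.37 Mb) 11, and the HBEGF window (chromosome 5, 139.68 to 139.76 Mb) 9. Within a window, regions are numbered in coordinate order, so that ERRFI1 region 25 is the last of that window. Coordinates are printed as the table gives them, and whether its starts count from 0 or from 1 is not stated there.

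The assay was Omni-ATAC-seq, in which the Tn5 transposase inserts sequencing adapters into open DNA. All cells were held in low serum and then given DMSO vehicle or the synthetic progestin R5020 (promegestone), at 0.1 nM or at 10 nM. Treatment lasted 6 h or 18 h. Each of the 6 groups had 3 libraries, 18 in all, and nothing in the labels says whether these came from separate cultures, so p-values measure the spread between libraries, which may be partly technical. A single cell line limits the model, and a region open in more cells cannot be told apart from a region more open in each cell. Levels are CPM, the counts of a region divided by the TMM-scaled library size in units of 1e6 counts. The libraries held 8756311 to 39984217 counts in all regions, of which 10816 to 56847 fell in the 129 regions.

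EGFR, ERBB2, ERBB3 and ERBB4 are receptor tyrosine kinases of the cell surface that signal as pairs. EREG (epiregulin), AREG (amphiregulin) and HBEGF (heparin-binding EGF-like growth factor) are membrane-bound precursors of ligands for EGFR, and EREG and HBEGF also activate ERBB4. ERBB2 has no known ligand of its own, ERBB3 has little kinase activity and depends on its partner, and ERRFI1 (also called MIG6) binds the kinase domain and damps signalling as a feedback inhibitor. In mammary cells the family drives growth, and amphiregulin is a known mediator of hormone-driven growth of the mammary duct. In RefSeq's gene order, the neighbours of these genes include other members of the pathway: EPGN (epigen, a ligand) beside EREG, BTC (betacellulin, a ligand) beside AREG, and PA2G4 (an ERBB3-binding protein) beside ERBB3. The windows may hold regions of other genes, but gene order alone does not show which of these or other neighbours reach into them. The hg19 position of each region relative to exons, introns and UTRs was not analysed here.

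Promoter sequences were available from RefSeq (build GRCh38.p14) for 7 of the 8 genes; ERBB3 had no entry and EGFR had 2. The 3 printed here belong to the locus with the most rises with R5020 (ERRFI1), the locus with the most falls at 6 h (ERBB2), and ERBB4, whose entry held the motif searched. Each is the 250 bases before the gene start, 5′ to 3′ on the gene's strand, and capitals mark an AGAACA hexamer. They are of another build than the accessible regions and were not placed on them.

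ERRFI1, chr1:8026310-8026559, minus strand: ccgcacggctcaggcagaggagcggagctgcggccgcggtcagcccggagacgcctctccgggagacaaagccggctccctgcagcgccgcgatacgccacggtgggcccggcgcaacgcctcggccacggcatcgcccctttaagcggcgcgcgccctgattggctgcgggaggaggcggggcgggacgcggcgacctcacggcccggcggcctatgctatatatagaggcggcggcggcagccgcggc

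ERBB2, chr17:39687844-39688093, plus strand: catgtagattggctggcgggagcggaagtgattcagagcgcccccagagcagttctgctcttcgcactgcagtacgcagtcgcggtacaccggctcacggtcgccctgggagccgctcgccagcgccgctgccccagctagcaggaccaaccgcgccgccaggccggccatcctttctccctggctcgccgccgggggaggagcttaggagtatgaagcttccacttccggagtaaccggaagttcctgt

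ERBB4, chr2:212538803-212539052, minus strand: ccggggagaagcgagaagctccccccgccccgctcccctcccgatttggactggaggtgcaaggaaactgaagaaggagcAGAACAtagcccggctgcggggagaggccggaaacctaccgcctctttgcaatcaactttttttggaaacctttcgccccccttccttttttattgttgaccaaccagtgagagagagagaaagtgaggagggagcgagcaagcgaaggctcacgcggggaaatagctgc

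The progesterone receptor, like the other steroid receptors of its class, is known to bind an inverted repeat of this hexamer. The full element, AGAACA and its reverse complement TGTTCT with 3 bases of any kind between them, searched on both strands, occurred in 0.00285% of 35114 promoters of the same length, and the looser ACANNNTGT in 4.61%. The single hexamer, AGAACA or TGTTCT on the other strand, occurred in 12.4%; any match to the full element also contains the other motifs. Among the 8 promoter entries of the family, neither repeat was found, and the hexamer occurred in the ERBB4 entry only, starting 170 bases before the gene start (position -170). The G and C content of the printed stretches was 75.2% for ERRFI1, 65.6% for ERBB2 and 57.2% for ERBB4, against a median of 58.0% over all promoters.

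With 10 nM R5020 for 6 h, relative to vehicle, chromatin opened at 9 of 25 ERRFI1 regions and closed at 2. It opened at 5 of 11 EREG and AREG regions and closed at none, and it closed at 6 of 15 ERBB2 regions and opened at none. The other receptor windows went both ways: 5 regions opened and 5 closed among 28 of ERBB4, 3 and 2 among 27 of EGFR, and 2 and 3 among 14 of ERBB3. With edgeR's quasi-likelihood test and Benjamini-Hochberg adjustment over all 132304 tested regions (adjusted p under 0.05), 24 of 129 regions were higher with 10 nM than with vehicle at 6 h and 19 were lower. Over all tested regions, 16.7% were higher and 8.42% lower, so the share of rises among these loci (18.6%) lay near the background and the share of falls (14.7%) above it. The median log2 fold change was -0.24 over the 129 regions and -0.05 over all tested regions. The number of falls depended on single libraries: it was 8 without vehicle replicate 1, 9 without vehicle replicate 2, and 11, 10 and 8 without 10 nM replicates 1, 2 and 3. Over all tested regions, 4.89 to 9.28% were lower when 1 library was left out. Rises numbered 16 to 22 when 1 library was left out.

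The excess of falls and the median changed when a property of the libraries was added to the fit. The 5000 strongest regions of the table held 37.1 to 41.6% of all counts with vehicle and 33.4 to 34.6% with 10 nM at 6 h, so at that time this share and the dose cannot be told apart. With the share as a covariate of the fit, 15 of the 129 regions were lower (11.6%), against 12.1% of all tested regions, and 26 were higher (20.2%), against 18.4%. The median log2 fold change turned to 0.14 over the 129 regions, with 77 positive and 52 negative, and was 0.03 over all tested regions. The ERBB3 and ERBB4 medians turned from -0.34 and -0.41 to 0.22 and 0.25, and the EGFR median from 0.06 to -0.12. For a part of the calls below, values with this covariate are given where they end the call, turn its direction or move it by more than 1.5 times.

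The windows differed in direction. ERRFI1 had 9 rises and 2 falls among its 25 regions at 6 h, and EREG with AREG had 5 rises and no fall among 11. The ERRFI1 changes were 12 positive and 13 negative, with a median of -0.07 that was 0.07 with library-size scaling, 0.09 with a loess offset and 0.53 with the covariate. ERBB2 had no rise and 6 falls among 15. ERBB4 had 5 rises and 5 falls among 28, ERBB3 had 2 and 3 among 14, EGFR had 3 and 2 among 27, and HBEGF had 1 fall among 9. The share of rises was 45.5% for EREG with AREG, 36.0% for ERRFI1, 17.9% for ERBB4, 14.3% for ERBB3 and 11.1% for EGFR, against 16.7% of all tested regions. The share of falls was 40.0% for ERBB2, 21.4% for ERBB3, 17.9% for ERBB4, 11.1% for HBEGF, 8.0% for ERRFI1 and 7.41% for EGFR, against 8.42%. These counts describe the windows, and the difference between windows was not tested.

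**Figure D1:**
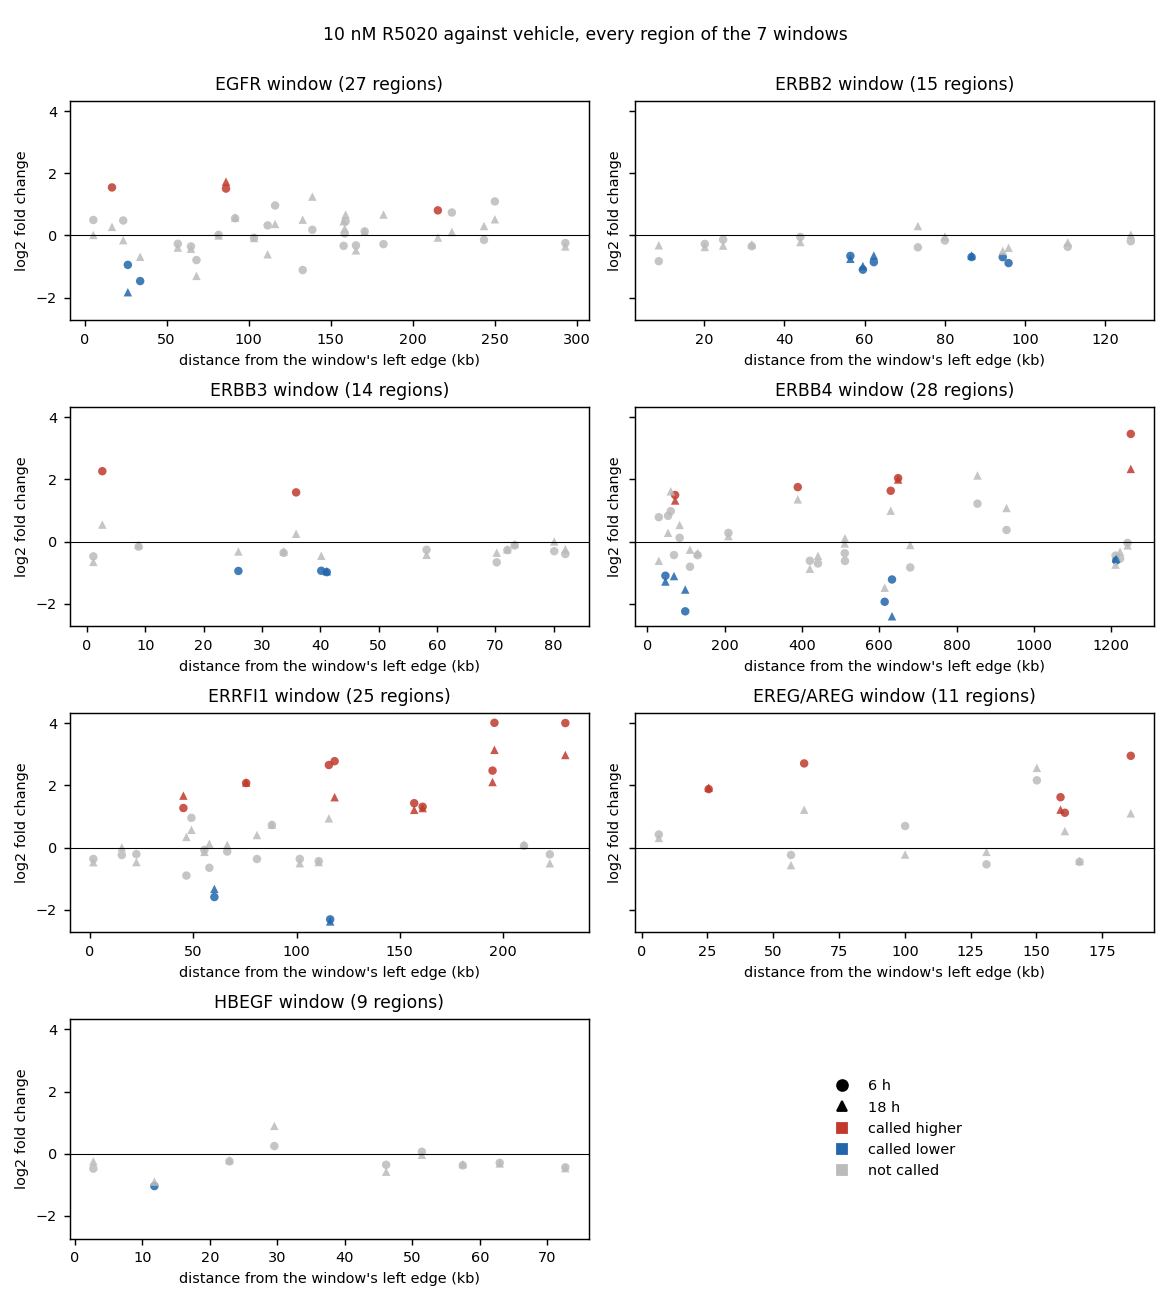
Log2 fold change of each region for 10 nM R5020 against vehicle, by distance (kb) from the left edge of each of the 7 windows, at 6 h (circles) and 18 h (triangles); red (higher) and blue (lower) points passed an adjusted p under 0.05 in edgeR's quasi-likelihood test, and grey points did not. ERRFI1 carries the most rises by number (9 of 25 regions at 6 h and 8 at 18 h), while each ERBB2 region lies below 0 at 6 h.

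EGFR, the receptor of the EREG, AREG and HBEGF ligands, had 1 region that rose at both times. EGFR region 10 (chr7:55116012-55116480) read 3.68, 1.99 and 2.27 CPM with vehicle at 6 h, 3.01, 3.40 and 1.94 with 0.1 nM, and 6.14, 7.48 and 8.22 with 10 nM. At 18 h its libraries read 3.71, 2.93 and 1.94 with vehicle, 4.47, 3.18 and 2.72 with 0.1 nM, and 12.2, 8.34 and 7.83 with 10 nM. All 10 nM libraries lay above all vehicle and 0.1 nM libraries at each time, while the lower dose overlapped vehicle. The log2 fold change of 10 nM against vehicle was 1.51 ± 0.30 (SE; adjusted p = 0.000887, edgeR) at 6 h and 1.73 ± 0.29 (adjusted p = 0.000241, edgeR) at 18 h. Against 0.1 nM it was 1.40 ± 0.29 at 6 h (adjusted p = 0.00151, edgeR) and 1.44 ± 0.29 at 18 h (adjusted p = 0.00261, edgeR).

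A narrow region of the EGFR window closed by 18 h. EGFR region 4 (chr7:55056280-55056511) read 3.28, 3.09 and 2.65 CPM with vehicle at 18 h, 2.79, 2.21 and 1.26 with 0.1 nM, against 0.920, 0.818 and 0.746 with 10 nM. The 10 nM libraries were below all others of that time, with a 3.55-fold fall against vehicle (log2 fold change -1.83 ± 0.35, adjusted p = 0.0007, edgeR). At 6 h the fall was -0.95 ± 0.34 (adjusted p = 0.0435, edgeR), a call lost without any of vehicle replicates 1, 2 and 3 and 10 nM replicates 1 and 3 (adjusted p 0.0774, 0.0992, 0.103, 0.143 and 0.216, edgeR). EGFR region 2 (chr7:55046577-55046863) rose with 10 nM at 6 h, from 0.420, 0.700 and 0.890 CPM to 2.15, 1.51 and 2.31 CPM (1.54 ± 0.41, adjusted p = 0.00768, edgeR). EGFR region 5 (chr7:55063780-55064032) fell at 6 h, from 1.47, 2.06 and 1.30 CPM to 0.890, 0.534 and 0.381 CPM (-1.47 ± 0.43, adjusted p = 0.0148, edgeR), a call lost without vehicle replicate 2 or 10 nM replicate 2 or 3 (adjusted p 0.111, 0.0592 and 0.0997, edgeR). At 18 h it was lower with 10 nM than with 0.1 nM by -1.58 ± 0.40 (adjusted p = 0.0134, edgeR; 0.0744 without 0.1 nM replicate 1 and 0.057 without 10 nM replicate 3). The region with the highest vehicle level of the window, EGFR region 27 (chr7:55322368-55323852), was 53.9 ± 10.2 CPM (SD, n = 3) with vehicle and 45.4 ± 5.55 CPM (n = 3) with 10 nM at 6 h and was not called in any comparison. The 6 h calls of regions 2, 4 and 5 were also lost with the covariate, with log2 fold changes of 1.14, -0.51 and -0.95 (adjusted p 0.0734, 0.343 and 0.132, edgeR). That of region 4 was lost with DESeq2's size factors, library-size scaling, no filter and a fit of only the compared groups as well (adjusted p 0.0519 to 0.0659, edgeR). In all, 3 EGFR regions rose (11.1%) and 2 fell (7.41%) at 6 h, against 16.7% and 8.42% of all tested regions. At 18 h, 1 rose and 1 fell (3.7% each), against 12.8% and 7.56%. The 6 h falls numbered 0 without vehicle replicate 2 or 10 nM replicate 3 and 1 without any of the other 4 libraries.

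ERBB2, the receptor without a ligand of its own, lost accessibility along a stretch of its window. Each of its 15 regions had a negative log2 fold change with 10 nM at 6 h, with a median of -0.39, and 6 passed the test; 14 were negative with library-size scaling or a loess offset, and 11 with the covariate, where the median was -0.24. These 6 lay among the 8 regions between 37856072 and 37896200, a span of 40.1 kb. At 18 h, 13 of 15 changes were negative and 4 regions passed the test, where 12.8% of all tested regions were higher and 7.56% lower. ERBB2 lies between PGAP3 and MIEN1 in the gene order. Which of the falls lie at ERBB2, at those genes or at other genes of the window was not analysed here.

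ERBB2 region 7 (chr17:37859143-37860031) fell the most of the window. It read 48.5, 41.5 and 34.9 CPM with vehicle at 6 h, 29.7, 35.7 and 36.3 with 0.1 nM, against 14.7, 21.7 and 21.7 with 10 nM. The 18 h libraries read 41.6, 34.5 and 36.8 with vehicle, 45.6, 37.0 and 33.7 with 0.1 nM, and 22.2, 17.3 and 17.2 with 10 nM. At each time the 10 nM libraries were below every other library, and the lower dose overlapped vehicle. The fall against vehicle was 2.15-fold at 6 h (log2 fold change -1.10 ± 0.21, adjusted p = 0.000435, edgeR) and 1.98-fold at 18 h (-0.99 ± 0.21, adjusted p = 0.00158, edgeR). Against 0.1 nM it was -1.03 ± 0.21 at 18 h (adjusted p = 0.00224, edgeR) and -0.81 ± 0.20 at 6 h (adjusted p = 0.00695, edgeR), the last with adjusted p = 0.0793 (edgeR) without 10 nM replicate 1. The call against 0.1 nM at 18 h was lost when only the compared groups were fitted (adjusted p = 0.0602, edgeR), and the fall against vehicle at 18 h was -0.64 with a loess offset.

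ERBB2 region 13 (chr17:37895549-37896200), at the other end of the stretch, read 33.6, 30.5 and 26.3 CPM with vehicle at 6 h and 16.2, 16.3 and 16.2 with 10 nM. Its groups did not overlap, and its log2 fold change was -0.89 ± 0.19 (adjusted p = 0.00176, edgeR). By 18 h its level was 26.8 ± 1.76 CPM (SD, n = 3) with vehicle and 20.2 ± 4.23 CPM (n = 3) with 10 nM and did not pass the test. Next to it, ERBB2 region 12 (chr17:37893840-37895004), which had the highest vehicle level of the window, went from 58.2 ± 5.06 to 35.8 ± 3.39 CPM at 6 h (-0.70 ± 0.22, adjusted p = 0.0227, edgeR). That call was lost when any 1 library was left out, except vehicle replicate 3, with adjusted p between 0.0571 and 0.127 (edgeR). It was also lost with the covariate, where the log2 fold change was -0.24 (adjusted p = 0.203, edgeR), and with a loess offset the log2 fold change was -0.40. For region 13 the covariate gave -0.49 at 6 h, still past the threshold (adjusted p = 0.0113, edgeR).

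ERBB2 region 6 (chr17:37856072-37856870), the start of the stretch, fell at 18 h from 31.0, 32.2 and 24.9 CPM to 19, 18.5 and 14.5 CPM (-0.75 ± 0.18, adjusted p = 0.0052, edgeR). Its fall at 6 h was -0.66 ± 0.18 (adjusted p = 0.0103, edgeR), and adjusted p was 0.071, 0.0769 and 0.0767 without vehicle replicate 1, 10 nM replicate 1 and 10 nM replicate 3. With the covariate the 6 h call was lost (-0.35, adjusted p = 0.0707, edgeR) and the 18 h value was -0.50 (adjusted p = 0.0116, edgeR). With a loess offset both values were -0.43, and a fit of only the compared groups lost the 18 h call (adjusted p = 0.0533, edgeR). The count of 6 ERBB2 falls at 6 h was 2 without vehicle replicate 1, 3 without 10 nM replicate 1 or 3, and 4 to 6 otherwise. The count of 4 at 18 h was 2 without vehicle replicate 1 or 2 or without 10 nM replicate 2 or 3. The summed level of all ERBB2 regions, which involves no test, fell by 32.9% with 10 nM at 6 h, from 427.5, 398.9 and 347.0 CPM in the vehicle libraries to 260.3, 267.2 and 259.4 CPM. The 18 h sum fell by 27.5%, from 414.5, 387.4 and 324.7 to 309.7, 271.6 and 235.5 CPM. The 10 nM sums lay below the vehicle sums at both times; with 0.1 nM the sums overlapped those of vehicle. The share held by the 5000 strongest regions moved the same way, without overlap at 6 h and with overlap at 18 h (36.2 to 39.9% with vehicle and 31.1 to 37.2% with 10 nM). With that share as a covariate, 4 ERBB2 regions fell at each time, and the median of the window was -0.24 at 6 h and -0.14 at 18 h, against -0.39 and -0.33 without it.

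ERBB3, the partner receptor of ERBB2, had 2 regions that rose with 10 nM at 6 h and were not called at 18 h. ERBB3 region 6 (chr12:56475658-56476063) read 8.51, 9.69 and 11.6 CPM with vehicle at 6 h, 10.7, 13.2 and 16.6 with 0.1 nM, and 30.1, 30.5 and 28.6 with 10 nM. At 18 h the same region read 9.18, 9.62 and 10.4 with vehicle, 10.3, 12 and 14.9 with 0.1 nM, against 10.7, 13.7 and 10.3 with 10 nM. The 10 nM libraries stood clear of all others at 6 h only. The change against vehicle was 2.99-fold at 6 h (log2 fold change 1.58 ± 0.20, adjusted p = 7.34e-06, edgeR).

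ERBB3 region 2 (chr12:56442420-56442834) read 1.89, 1.22 and 2.67 CPM with vehicle at 6 h, 1.33, 2.03 and 0.917 with 0.1 nM, and 9.18, 10.0 and 7.79 with 10 nM. At 18 h it read 2.41, 2.42 and 2.48 with vehicle and 3.23, 3.68 and 3.82 with 10 nM. The rise at 6 h was 4.80-fold (2.26 ± 0.32, adjusted p = 2.9e-05, edgeR), and at 18 h the 10 nM libraries were still above vehicle but not past the test. The direct test of the time difference, the interaction of the 10 nM response with time, gave a log2 difference of -1.33 ± 0.28 for region 6 (adjusted p = 0.161, edgeR) and -1.72 ± 0.45 for region 2 (adjusted p = 0.307, edgeR). Neither passed the adjusted threshold. For region 6 the difference passed in DESeq2 (adjusted p = 0.00619) and in edgeR with the replicate number as a block (0.0261) or with the covariate above (0.00662).

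Another ERBB3 region fell at both times. ERBB3 region 8 (chr12:56480905-56481325) read 21.5, 22.7 and 16.0 CPM with vehicle at 6 h and 9.70, 10.6 and 10.1 with 10 nM, and 21.9, 20.6 and 17.9 against 11.7, 9.73 and 9.51 at 18 h. The groups did not overlap. Its log2 fold changes were -0.99 ± 0.19 (adjusted p = 0.00064, edgeR) and -0.95 ± 0.19 (adjusted p = 0.00115, edgeR). ERBB3 region 4 (chr12:56465528-56466392) fell at 6 h, from 6.20, 3.90 and 4.45 CPM to 2.53, 2.27 and 2.63 CPM (-0.95 ± 0.32, adjusted p = 0.037, edgeR). That call was lost without any of vehicle replicates 1 and 2 and 10 nM replicates 1, 2 and 3 (adjusted p 0.191, 0.0503, 0.101, 0.123 and 0.0867, edgeR). It was also lost with library-size scaling and a minimum mean of 1 CPM (adjusted p 0.134 and 0.0606, edgeR). With the covariate, the 6 h change was -1.46 in region 4 (adjusted p = 0.00416, edgeR) and -0.61 in region 8 (adjusted p = 0.00809, edgeR). The region with the highest vehicle level of the window, ERBB3 region 9 (chr12:56497652-56498809), was 149 ± 23.4 CPM (SD, n = 3) with vehicle and 124 ± 1.62 CPM (n = 3) with 10 nM at 6 h and was not called in any comparison; without 10 nM replicate 1 it was called lower at 18 h (-0.69, adjusted p = 0.0291, edgeR). The window had 2 rises and 3 falls at 6 h, and no rise and 1 fall (7.14%) at 18 h, where 7.56% of all tested regions fell. The fall count at 18 h was 3 without 10 nM replicate 1.

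**Figure D2:**
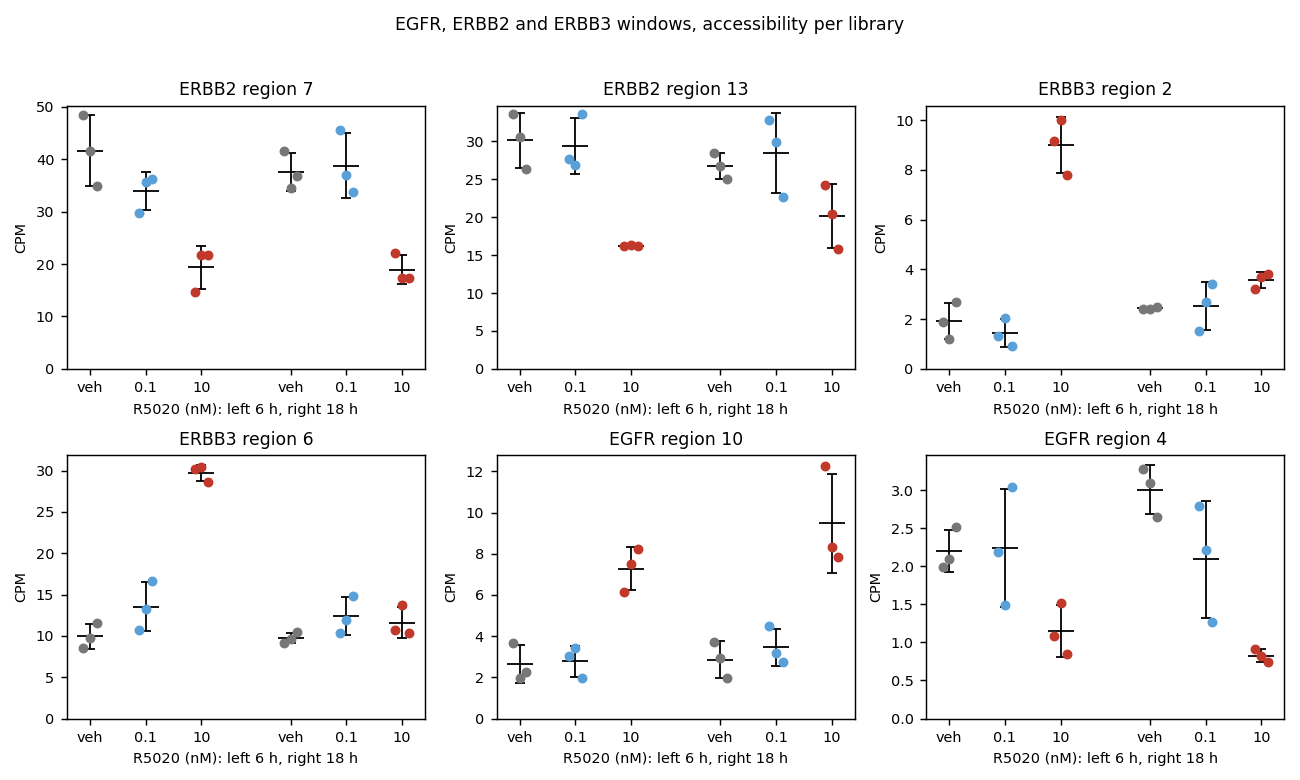
CPM of 2 regions each of the ERBB2, ERBB3 and EGFR windows in every library (points), with the mean and SD of each group of 3, by dose and time. ERBB3 regions 2 and 6 stand higher with 10 nM at 6 h than at 18 h, where the 10 nM libraries of region 2 are still above vehicle. The time difference passed the adjusted threshold for neither region in the reported edgeR fit. EGFR region 10 is high with 10 nM at both times and ERBB2 region 7 is low at both.

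ERBB4, a receptor for EREG and HBEGF and for the neuregulins, had the lowest density of regions (2.22 per 100 kb). Its regions included some that were called higher with 10 nM but not with 0.1 nM, some that answered both doses, and some whose levels were higher with 0.1 nM than with 10 nM. ERBB4 region 28 (chr2:213440659-213441088) opened with 10 nM only at 6 h. It read 0.210, 0.295 and 0.0810 CPM with vehicle at 6 h, 0.207, 0.119 and 0.110 with 0.1 nM, against 2.25, 1.78 and 3.13 with 10 nM. The rise was 11-fold (log2 fold change 3.46 ± 0.65, adjusted p = 0.000504, edgeR), from levels that correspond to few reads. The 18 h level was 0.403 ± 0.169 CPM (SD, n = 3) with vehicle and 1.97 ± 0.850 CPM (n = 3) with 10 nM (2.34 ± 0.59, adjusted p = 0.00723, edgeR). Raw counts at 18 h were 6, 7 and 10 with vehicle, 3, 8 and 12 with 0.1 nM, and 112, 19 and 15 with 10 nM, in libraries of unlike depth. The log2 difference of 10 nM against 0.1 nM at 18 h was 1.89, a call kept in 10 of 18 alternatives.

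ERBB4 region 6 (chr2:212261583-212261887) opened to a like level with both doses. It read 0.630, 2.06 and 1.86 CPM with vehicle at 6 h, 5.85, 3.94 and 5.83 with 0.1 nM, against 4.40, 4.14 and 5.01 with 10 nM. Both doses also stood above vehicle at 18 h, with 1.91 ± 0.704 CPM (SD, n = 3) with vehicle, 4.47 ± 0.512 with 0.1 nM and 4.69 ± 0.725 with 10 nM (n = 3 each). At 6 h the log2 fold change was 1.70 ± 0.32 with 0.1 nM (adjusted p = 0.00665, edgeR) and 1.49 ± 0.32 with 10 nM (adjusted p = 0.00149, edgeR). The 18 h values were 1.24 ± 0.31 with 0.1 nM (adjusted p = 0.0364, edgeR) and 1.32 ± 0.31 with 10 nM (adjusted p = 0.00436, edgeR). The 0.1 nM call at 18 h was lost without any of vehicle replicates 1 and 2 and 0.1 nM replicates 1, 2 and 3 (adjusted p 0.236, 0.177, 0.152, 0.0767 and 0.0563, edgeR), and with library-size scaling (adjusted p 0.0518, edgeR). The dose groups overlapped at both times.

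Other ERBB4 regions stood lower with 10 nM than with 0.1 nM. ERBB4 region 2 (chr2:212236434-212236863) read 3.57, 3.83 and 1.62 CPM with vehicle at 6 h, 5.32, 5.31 and 4.51 with 0.1 nM, and 1.22, 1.65 and 1.38 with 10 nM. Its libraries of 18 h read 3.15, 3.65 and 2.59 with vehicle, 5.73, 6.08 and 2.92 with 0.1 nM, against 1.29, 2.13 and 0.373 with 10 nM. The 0.1 nM libraries stood above the 10 nM libraries at both times, with a log2 difference of 10 nM against 0.1 nM of -1.83 ± 0.38 at 6 h (adjusted p = 0.00156, edgeR) and -1.95 ± 0.40 at 18 h (adjusted p = 0.00287, edgeR; 0.0533 when only the compared groups were fitted). ERBB4 region 5 (chr2:212258433-212259197) showed the same order at 18 h, 5.85 ± 0.913 CPM (SD, n = 3) with vehicle, 8.36 ± 2.52 with 0.1 nM and 2.62 ± 0.719 with 10 nM (n = 3 each). There 10 nM was below vehicle (-1.11 ± 0.27, adjusted p = 0.00473, edgeR) and below 0.1 nM (-1.64 ± 0.27, adjusted p = 0.000353, edgeR). For both regions, 0.1 nM against vehicle was not called. Region 2 was called lower with 10 nM than with vehicle, with log2 fold changes of -1.10 at 6 h and -1.29 at 18 h. Those calls were kept in 7 and 11 of 19 alternatives. The alternative values ran from -1.39 to -0.52 at 6 h and from -1.69 to -0.85 at 18 h.

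ERBB4 region 7 (chr2:212273185-212273588) was higher with 0.1 nM than with 10 nM at 6 h. It read 1.79, 1.55 and 1.30 CPM with vehicle, 4.64, 3.04 and 3.92 with 0.1 nM, and 1.64, 1.60 and 1.76 with 10 nM, so the 0.1 nM libraries stood above all others. The log2 difference of 10 nM against 0.1 nM was -1.22 ± 0.27 (adjusted p = 0.00274, edgeR). The rise with 0.1 nM against vehicle was 1.34 ± 0.28 at 6 h (adjusted p = 0.0187, edgeR) and 1.10 ± 0.29 at 18 h (adjusted p = 0.0484, edgeR). Both rises were lost when most single libraries were left out. At 6 h these were vehicle replicates 1, 2 and 3 and 0.1 nM replicates 1 and 3 (adjusted p 0.052, 0.11, 0.0728, 0.141 and 0.0664, edgeR), and at 18 h each of the 6 libraries compared (adjusted p from 0.0556 to 0.244, edgeR). The 18 h rise was also lost with a loess offset and when only the compared groups were fitted (adjusted p 0.0501 and 0.151, edgeR).

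Falls in the ERBB4 window included a region that closed with both doses. ERBB4 region 19 (chr2:212822561-212823310) read 7.5, 8.28 and 4.01 CPM with vehicle at 18 h, 2.33, 2.35 and 2.04 with 0.1 nM, and 1.47, 1.72 and 0.373 with 10 nM. All treated libraries lay below all vehicle libraries, also at 6 h, where vehicle was 7.08 ± 2.05 CPM (SD, n = 3), 0.1 nM 2.64 ± 0.0617 and 10 nM 3.05 ± 0.717 (n = 3 each). The fall with 10 nM at 18 h was 5.30-fold (log2 fold change -2.41 ± 0.37, adjusted p = 7.79e-05, edgeR). With 10 nM at 6 h it was -1.22 ± 0.34 (adjusted p = 0.0102, edgeR), not past the threshold without vehicle replicate 1 or 2 or 10 nM replicate 3 (adjusted p 0.0599, 0.0531 and 0.0752, edgeR). With the covariate that fall was -0.55 and not called (adjusted p = 0.261, edgeR). With 0.1 nM it was -1.42 ± 0.34 at 6 h (adjusted p = 0.0411, edgeR) and -1.55 ± 0.35 at 18 h (adjusted p = 0.0173, edgeR). Those 0.1 nM calls were lost without any 1 library other than vehicle replicate 3, with adjusted p from 0.0916 to 0.21 at 6 h and from 0.0586 to 0.106 at 18 h (edgeR).

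ERBB4 region 8 (chr2:212287801-212288017) fell 4.75-fold with 10 nM at 6 h, from 1.37, 1.58 and 1.94 CPM to 0.375, 0.223 and 0.410 CPM (-2.25 ± 0.43, adjusted p = 0.000579, edgeR). ERBB4 region 17 (chr2:212803904-212804095) fell at 6 h from 1.16, 0.921 and 0.729 CPM to 0.328, 0.223 and 0.176 CPM (-1.94 ± 0.62, adjusted p = 0.0258, edgeR), a call lost without vehicle replicate 1 or 2 or 10 nM replicate 2 or 3 (adjusted p 0.0842, 0.0725, 0.0805 and 0.113, edgeR). ERBB4 region 20 (chr2:212838661-212838869) rose at 6 h from 0.105, 0.295 and 0.324 CPM to 1.03, 1.34 and 0.849 CPM (2.04 ± 0.57, adjusted p = 0.012, edgeR; 0.0505 without vehicle replicate 1). It rose by 1.99 ± 0.54 at 18 h (adjusted p = 0.0111, edgeR; 0.0714 without vehicle replicate 1 and 0.0517 without 10 nM replicate 1). The region with the highest vehicle level of the window, ERBB4 region 25 (chr2:213402081-213404250), went from 26.6 ± 3.99 CPM (SD, n = 3) with vehicle to 17.3 ± 2.18 CPM (n = 3) with 10 nM at 6 h (-0.61 ± 0.19, adjusted p = 0.0212, edgeR). That call was lost without vehicle replicate 1 or 2 or 10 nM replicate 1 or 2 (adjusted p 0.118, 0.0818, 0.153 and 0.108, edgeR). It was also lost with the covariate, at -0.25 (adjusted p = 0.239, edgeR), and without the 2 libraries farthest from their group mean (adjusted p = 0.0864, edgeR), and the change was -0.40 with a loess offset. The number of ERBB4 rises at 6 h was 2 without vehicle replicate 1 and 3 without vehicle replicate 2 or 3 or 10 nM replicate 3. The number of falls was 1 without vehicle replicate 1 or 2, 3 without 10 nM replicate 1, and 2 without 10 nM replicate 2 or 3. At 18 h, 3 ERBB4 regions rose (10.7%) and 5 fell (17.9%), against 12.8% and 7.56% of all tested regions. Leaving out single libraries gave 2 to 5 of each, with 5 rises without 10 nM replicate 2 or 3. Falls at 18 h numbered 2 without vehicle replicate 2, and 3 without vehicle replicate 1 or 10 nM replicate 2 or 3.

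**Figure D3:**
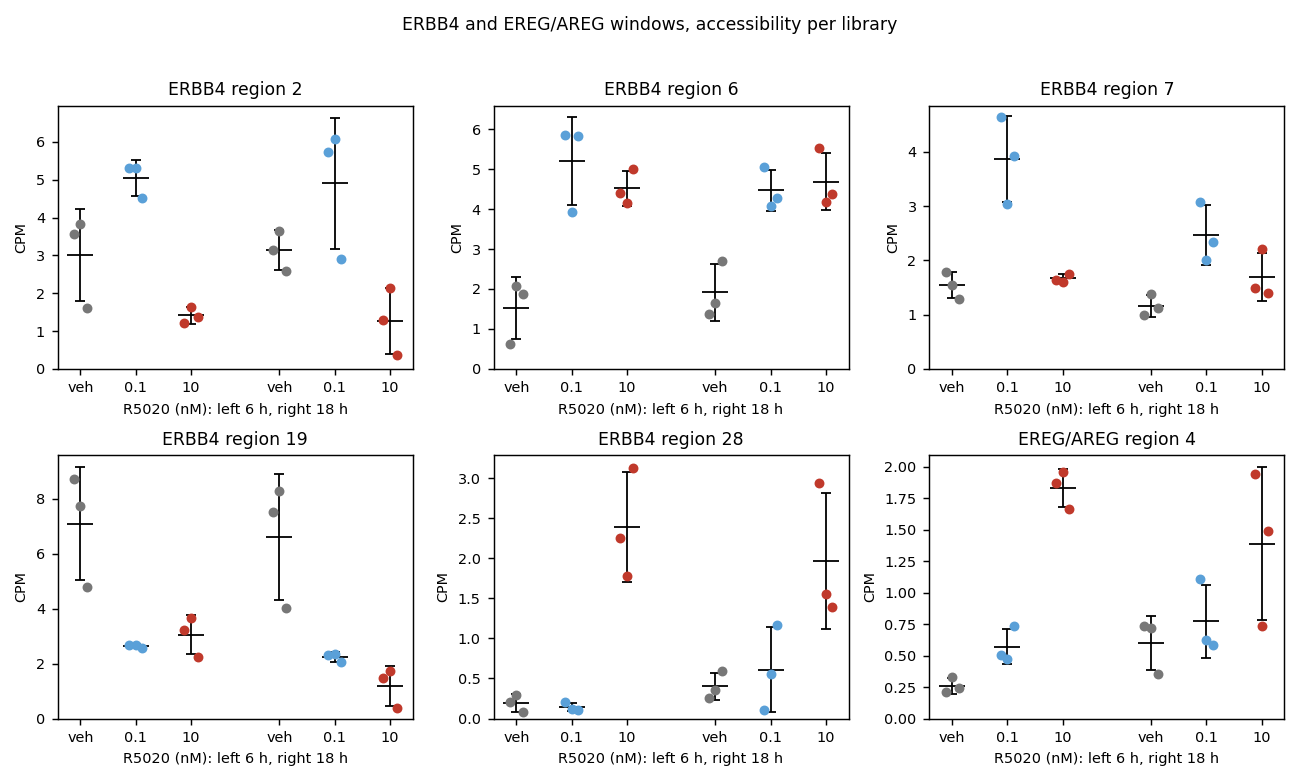
CPM of 5 ERBB4 regions and 1 region of the EREG and AREG window in every library (points), with the mean and SD of each group of 3, by dose and time. Regions 2 and 7 of ERBB4 are lower with 10 nM than with 0.1 nM at 6 h, region 6 is high with both doses and region 19 is low with both.

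ERRFI1, the feedback inhibitor of the receptors, had the most rises of the windows by number: 9 of 25 regions at 6 h and 8 at 18 h with 10 nM. These were 36.0% and 32.0% of its regions, against 16.7% and 12.8% of all tested regions. By share, EREG with AREG stood higher at 6 h (45.5%). The ERRFI1 rises spanned 185.4 kb at both times. ERRFI1 region 25 (chr1:8249986-8250367) answered both doses. It read 0.630, 0.626 and 0.890 CPM with vehicle at 6 h, 7.65, 4.65 and 4.18 with 0.1 nM, and 10.4, 12.2 and 11.7 with 10 nM. At 18 h it read 1.08, 1.44 and 1.12 with vehicle, 7.27, 6.36 and 4.96 with 0.1 nM, against 12.6, 8.67 and 7.18 with 10 nM. The order vehicle, 0.1 nM, 10 nM held without overlap at 6 h, and at 18 h both doses lay above vehicle while overlapping each other. With 10 nM the rise was 16.1-fold at 6 h (log2 fold change 4.01 ± 0.31, adjusted p = 3.79e-08, edgeR) and 7.90-fold at 18 h (2.98 ± 0.28, adjusted p = 4.43e-07, edgeR). With 0.1 nM it was 7.79-fold at 6 h (2.96 ± 0.31, adjusted p = 1.83e-05, edgeR) and 5.14-fold at 18 h (2.36 ± 0.28, adjusted p = 6.19e-05, edgeR). The difference between doses was 1.05 ± 0.25 at 6 h (adjusted p = 0.00398, edgeR) and was not called at 18 h, except with the covariate (0.88, adjusted p = 0.00879, edgeR).

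ERRFI1 region 22 (chr1:8215631-8216052) rose as far with 10 nM and less with 0.1 nM. It read 0.315, 0.405 and 0.486 CPM with vehicle at 6 h, 2.48, 1.61 and 2.13 with 0.1 nM, and 6.46, 6.99 and 6.59 with 10 nM. At 18 h region 22 read 0.517, 0.669 and 1.30 with vehicle, 1.83, 1.24 and 1.46 with 0.1 nM, against 8.96, 7.20 and 5.31 with 10 nM. The 3 groups did not overlap at 6 h, and at 18 h the 10 nM libraries lay above all others. The log2 fold change with 10 nM was 4.02 ± 0.36 at 6 h (adjusted p = 1.34e-07, edgeR) and 3.15 ± 0.32 at 18 h (adjusted p = 8.14e-07, edgeR). With 0.1 nM it was 2.35 ± 0.36 at 6 h (adjusted p = 0.00118, edgeR) and was not called at 18 h. Between doses, 10 nM was higher by 1.67 ± 0.28 at 6 h (adjusted p = 0.000222, edgeR) and by 2.23 ± 0.30 at 18 h (adjusted p = 5.99e-05, edgeR).

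Less than 1 kb from it, ERRFI1 region 21 (chr1:8214796-8215054) rose with 10 nM only. It read 0.630, 0.773 and 0.729 CPM with vehicle at 6 h, 0.650, 0.835 and 0.843 with 0.1 nM, against 4.12, 3.38 and 4.62 with 10 nM. The rise with 10 nM was 5.57-fold at 6 h (2.48 ± 0.37, adjusted p = 4.92e-05, edgeR) and 4.32-fold at 18 h (2.11 ± 0.36, adjusted p = 0.000247, edgeR). ERRFI1 region 11 (chr1:8095456-8095765) had a like pattern at 6 h. Its level was 0.320 ± 0.0404 CPM (SD, n = 3) for 0.1 nM and 2.15 ± 0.146 CPM (n = 3) for 10 nM. The difference between those doses was 2.72 ± 0.54 (adjusted p = 0.000994, edgeR). At 18 h its 0.1 nM libraries were spread, at 1.07, 1.45 and 0.292 CPM, while vehicle libraries read 0.431, 0.309 and 0.589. Replicates 1 and 2 of the lower dose then lay above every vehicle library. Each 10 nM library of that time (2.60, 1.47 and 1.49 CPM) lay above both groups.

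ERRFI1 region 18 (chr1:8138121-8138785) rose in steps with dose at 6 h. It read 1.26, 1.66 and 1.78 CPM with vehicle, 5.26, 3.76 and 3.48 with 0.1 nM, and 10.6, 11.6 and 10.6 with 10 nM, with no overlap between the groups. Its log2 fold change with 10 nM was 2.78 ± 0.28 at 6 h (adjusted p = 5.84e-07, edgeR) and 1.62 ± 0.27 at 18 h (adjusted p = 0.000161, edgeR). With 0.1 nM it was 1.40 ± 0.28 at 6 h (adjusted p = 0.0125, edgeR), which did not pass without vehicle replicate 1 or 2 or 0.1 nM replicate 1 (adjusted p 0.0957, 0.0869 and 0.112, edgeR). ERRFI1 region 20 (chr1:8180525-8181624), the widest of the regions that rose, read 9.24, 5.52 and 5.75 CPM with vehicle, 16.0, 10.8 and 14.4 with 0.1 nM, and 13.4, 17.5 and 19.4 with 10 nM at 6 h. The dose groups overlapped each other and not vehicle. It rose by 1.31 ± 0.29 with 10 nM at 6 h (adjusted p = 0.00185, edgeR), by 1.27 ± 0.29 with 10 nM at 18 h (adjusted p = 0.00305, edgeR) and by 1.29 ± 0.29 with 0.1 nM at 18 h (adjusted p = 0.0169, edgeR). The last call was lost without vehicle replicate 1 or 2 or 0.1 nM replicate 1 (adjusted p 0.083, 0.12 and 0.156, edgeR).

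**Figure D4:**
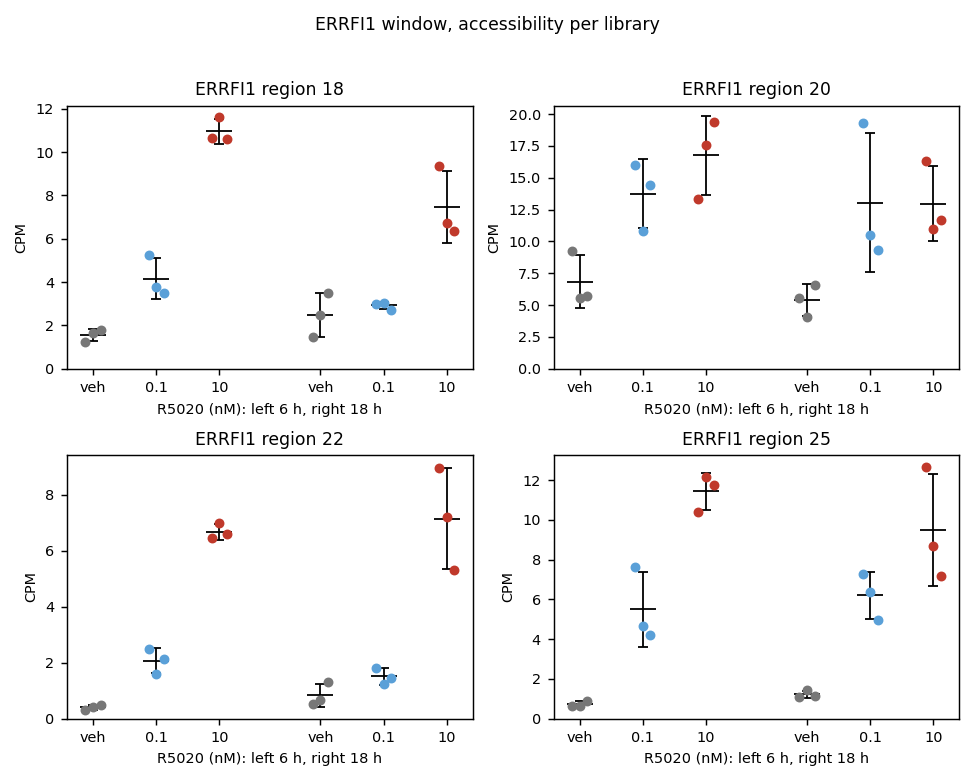
CPM of 4 ERRFI1 regions in every library (points), with the mean and SD of each group of 3, by dose and time. In region 25 the 0.1 nM libraries lie between vehicle and 10 nM at 6 h, while in region 20 the doses overlap each other.

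ERRFI1 region 9 (chr1:8079884-8080563) went the other way, from 6.51, 6.70 and 6.07 CPM with vehicle to 2.39, 2.14 and 1.90 with 10 nM at 6 h, and from 5.52, 5.35 and 4.6 to 2.21, 1.23 and 2.70 at 18 h. The groups did not overlap at either time. The fall was -1.59 ± 0.30 at 6 h (adjusted p = 0.000518, edgeR) and -1.33 ± 0.31 at 18 h (adjusted p = 0.00383, edgeR). ERRFI1 region 17 (chr1:8136195-8136386), of low level, also fell at both times, by -2.31 ± 0.76 at 6 h (adjusted p = 0.0292, edgeR) and -2.37 ± 0.79 at 18 h (adjusted p = 0.0367, edgeR). Without vehicle replicate 3 or 10 nM replicate 1, 2 or 3, adjusted p at 6 h was 0.193, 0.0623, 0.126 and 0.0606. Without vehicle replicate 1 or 3 or 10 nM replicate 2 or 3, adjusted p at 18 h was 0.0532, 0.166, 0.0851 and 0.114, and it was 0.0524 with library-size scaling. The region with the highest vehicle level of the window, ERRFI1 region 1 (chr1:8021150-8022075), was 48.7 ± 11.6 CPM (SD, n = 3) with vehicle and 37.8 ± 2.89 CPM (n = 3) with 10 nM at 6 h and was not called. The strongest region thus did not carry the rises, and the summed level of the window overlapped between 10 nM and vehicle, at 180 ± 5.48 against 162 ± 29.4 CPM at 6 h (n = 3 each). ERRFI1 lies between PARK7 and SLC45A1 in the gene order, and which gene region 1 lies at was not analysed here. The 2 falls of the window at 18 h became 5 without 10 nM replicate 1 and 1 without vehicle replicate 1 or 3 or 10 nM replicate 2 or 3. At 6 h they became 1 without vehicle replicate 3 or any 1 of the 10 nM libraries.

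EREG and AREG, the ligand genes that lie side by side, gained accessibility with 10 nM at 6 h from low levels. Of 11 regions, 5 rose and none fell, 8 of 11 changes were positive, and the median log2 fold change was 1.12; rises numbered 3 without vehicle replicate 2 and 4 or 5 otherwise. EREG/AREG region 4 (chr4:75241668-75241813) read 0.210, 0.331 and 0.243 CPM with vehicle at 6 h, 0.502, 0.477 and 0.733 with 0.1 nM, against 1.87, 1.96 and 1.67 with 10 nM. The groups did not overlap. The rise with 10 nM was 6.54-fold (log2 fold change 2.71 ± 0.49, adjusted p = 0.000308, edgeR). At 18 h the region read 0.733, 0.720 and 0.354 CPM with vehicle and 1.94, 0.736 and 1.49 with 10 nM and was not called. That rise was called at 18 h with DESeq2 (adjusted p = 0.0456) and, in edgeR, with library-size scaling, the replicate block and the covariate (adjusted p 0.0254, 0.0466 and 0.00801).

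EREG/AREG region 8 (chr4:75338918-75339424) rose 3.08-fold with 10 nM at 6 h, from 0.420, 0.700 and 0.890 CPM to 1.17, 2.45 and 2.69 CPM (1.62 ± 0.41, adjusted p = 0.00572, edgeR). EREG/AREG region 11 (chr4:75365796-75365962) read 0.105, 0.0368 and 0.324 CPM with vehicle and 1.36, 0.935 and 0.995 with 10 nM at 6 h (2.96 ± 0.78, adjusted p = 0.0079, edgeR; 0.0678 without vehicle replicate 2 and 0.0624 with the covariate). At 18 h region 8 rose by 1.22 ± 0.40 (adjusted p = 0.0341, edgeR), a call lost without vehicle replicate 1, 2 or 3 or 10 nM replicate 1 or 3 (adjusted p 0.0847, 0.0544, 0.107, 0.0557 and 0.0973, edgeR). It was also lost with a loess offset, the covariate or a fit of only the compared groups (adjusted p 0.0739, 0.0986 and 0.0678, edgeR). EREG/AREG region 2 (chr4:75205290-75205592) rose at 6 h from 0.630, 0.479 and 0.243 CPM to 1.31, 1.91 and 1.76 CPM (1.88 ± 0.59, adjusted p = 0.0222, edgeR), with 10 nM above 0.1 nM by 2.35 ± 0.58 (adjusted p = 0.00584, edgeR). Without vehicle replicate 2 or 3 or 10 nM replicate 2 or 3, adjusted p against vehicle was 0.0686, 0.0759, 0.0564 and 0.0536, and it was 0.0736 with a loess offset. The rise at 18 h was 1.93 ± 0.59 (adjusted p = 0.0231, edgeR; 0.108, 0.0867 and 0.175 without vehicle replicate 1, vehicle replicate 2 and 10 nM replicate 1). EREG/AREG region 7 (chr4:75330115-75330256) had counts of 0, 3 and 3 with vehicle, 2, 4 and 0 with 0.1 nM, and 9, 15 and 21 with 10 nM at 6 h. No vehicle or 0.1 nM library of either time had a count above 4, so the region passed the count filter only through its 10 nM libraries. It was called higher with 10 nM than with 0.1 nM at 6 h (adjusted p = 0.0489, edgeR), a p-value that does not stand apart from that selection. The call was lost without 0.1 nM replicate 1 or 3 or any 10 nM library (adjusted p 0.0682 to 0.194, edgeR). It was also lost with library-size scaling, upper-quartile scaling or a loess offset (adjusted p 0.0583, 0.0573 and 0.149, edgeR). The region with the highest vehicle level, EREG/AREG region 10 (chr4:75345903-75346907), was 12.2 ± 1.49 CPM (SD, n = 3) with vehicle and 8.82 ± 1.72 CPM (n = 3) with 10 nM and was not called. At 18 h, 2 regions rose (18.2%, against 12.8% of all tested regions) and none fell. That count of rises was 0 without vehicle replicate 1 or 2 or 10 nM replicate 1, 1 without vehicle replicate 3 or 10 nM replicate 3, and 4 without 10 nM replicate 2; without 10 nM replicate 1, 1 region fell.

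HBEGF, a ligand for EGFR and ERBB4, had the fewest calls. Of its 9 regions, 1 was called with 10 nM against vehicle at 6 h and none at 18 h, where leaving out 10 nM replicate 1 or 2 gave 1 fall. DESeq2 called region 2 lower at 18 h (adjusted p = 0.0463), as did edgeR with the replicate block, a loess offset or the covariate (adjusted p 0.049, 0.026 and 0.0354). HBEGF region 2 (chr5:139691640-139691935) read 2.10, 1.80 and 2.19 CPM with vehicle at 6 h and 1.36, 0.846 and 0.761 with 10 nM (-1.04 ± 0.33, adjusted p = 0.0262, edgeR). Although the groups did not overlap, the call was lost without vehicle replicate 1, 2 or 3 or 10 nM replicate 2 or 3 (adjusted p 0.074, 0.053, 0.0597, 0.101 and 0.135, edgeR) and with library-size scaling (adjusted p 0.0775, edgeR). At 18 h the same region was lower with 10 nM (1.21 ± 0.55 CPM, SD, n = 3) than with 0.1 nM (3.18 ± 0.289 CPM, n = 3), by -1.45 ± 0.34 (adjusted p = 0.00678, edgeR; 0.0544 without 10 nM replicate 1 and 0.0852 when only the compared groups were fitted). HBEGF region 5 (chr5:139725715-139726544), the region with the highest vehicle level of the window, read 81.2, 66.4 and 50.8 CPM with vehicle and 52.7, 52.8 and 49.7 with 10 nM at 6 h, with overlapping ranges. With the covariate its 6 h change turned to a called rise, of 0.52 against vehicle (adjusted p = 0.00184, edgeR) and 0.43 against 0.1 nM (adjusted p = 0.00551, edgeR).

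With 0.1 nM, few regions passed the test. At 6 h, 5 of 129 regions were higher than vehicle (3.88%) and 1 was lower (0.775%), against 0.949% and 0.241% of all tested regions. At 18 h, 4 were higher (3.1%) and 1 lower (0.775%), against 1.74% and 0.698%. All of these were in the ERRFI1 and ERBB4 windows: ERRFI1 regions 18, 22 and 25 and ERBB4 regions 6 and 7 rose at 6 h, ERRFI1 regions 20 and 25 and ERBB4 regions 6 and 7 rose at 18 h, and ERBB4 region 19 fell at both times. No region of the EGFR, ERBB2, ERBB3, EREG and AREG or HBEGF windows was called with 0.1 nM against vehicle in that fit, while 4 of those 76 regions had an unadjusted p under 0.05 at each time. Other edgeR settings called 2 of them, which are named here after their values were seen. EGFR region 1 was higher at 6 h with library-size scaling, a loess offset and the covariate (log2 fold changes of 0.73, 0.70 and 0.80; adjusted p 0.0266, 0.00618 and 0.000338, edgeR) and at 18 h with the loess offset and the covariate (0.55 and 0.62; adjusted p 0.0209 and 0.00405, edgeR). ERBB2 region 15 was lower at 6 h with the replicate block (-0.67, adjusted p = 0.0436, edgeR). The rises with 0.1 nM at 6 h numbered 3 without vehicle replicate 1 or 2 or 0.1 nM replicate 1. Those at 18 h numbered 1 without vehicle replicate 1 or 2 or 0.1 nM replicate 1, and 2 without 0.1 nM replicate 2 or 3.

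A direct comparison of the doses gave 19 regions higher (14.7%) and 15 lower (11.6%) with 10 nM than with 0.1 nM at 6 h, against 15.1% and 5.25% of all tested regions. The falls numbered 9 without 0.1 nM replicate 1 or 3 or 10 nM replicate 3. The ERBB2 window gave 6 of the 15 (3 without 0.1 nM replicate 3 or 10 nM replicate 1 or 3), the ERBB4 window 4, and the ERRFI1 window 6 of the 19 rises. At 18 h, 7 regions were higher (5.43%) and 8 lower (6.2%) with 10 nM, against 6.67% and 4.22% of all tested regions. Same-numbered libraries deviated together in that comparison (correlations of 0.599, 0.192 and 0.454 across regions), and with the replicate number as a block 10 were higher and 13 lower. Without the block, the rises at 18 h numbered 4 without 0.1 nM or 10 nM replicate 1, and the falls 4 without 0.1 nM replicate 1 and 5 without 10 nM replicate 3. Both comparisons with vehicle at a given time share the vehicle libraries, so their values stand side by side and no overlap between them was computed.

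Responses at 18 h were compared with those at 6 h, which share no libraries. At 18 h, 14 regions were higher (10.9%) and 13 lower (10.1%) with 10 nM than with vehicle, against 12.8% and 7.56% of all tested regions. With the covariate, 24 were higher (18.6%) and 13 lower, against 14.6% and 11.4%. All 14 had also been called higher at 6 h, which is 58.3% of the 24 rises at 6 h and 100% of those at 18 h; over all tested regions these shares were 60.8% and 79.2%. Of the falls, 12 were shared, 63.2% of the 19 at 6 h and 92.3% of the 13 at 18 h, against 58.3% and 64.9% over all tested regions. Of the 24 regions that rose at 6 h, 23 had a positive and 1 a negative log2 fold change at 18 h. The count of falls at 18 h was 8 without vehicle replicate 1 or 2 or 10 nM replicate 3, and 21 without 10 nM replicate 1. The vehicle groups of the 2 times did not differ in any of the 129 regions by edgeR, where 0.0% of all tested regions were called and 9 of the 129 had an unadjusted p under 0.05; DESeq2 also called none of them. No interaction of time with dose was called in the 129 regions, against 0.00151% of all tested regions for 10 nM and 0.0% for 0.1 nM. The unadjusted p was under 0.05 in 10 regions for 10 nM and in 3 for 0.1 nM; DESeq2 called 1, ERBB3 region 6, and none.

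**Figure D5:**
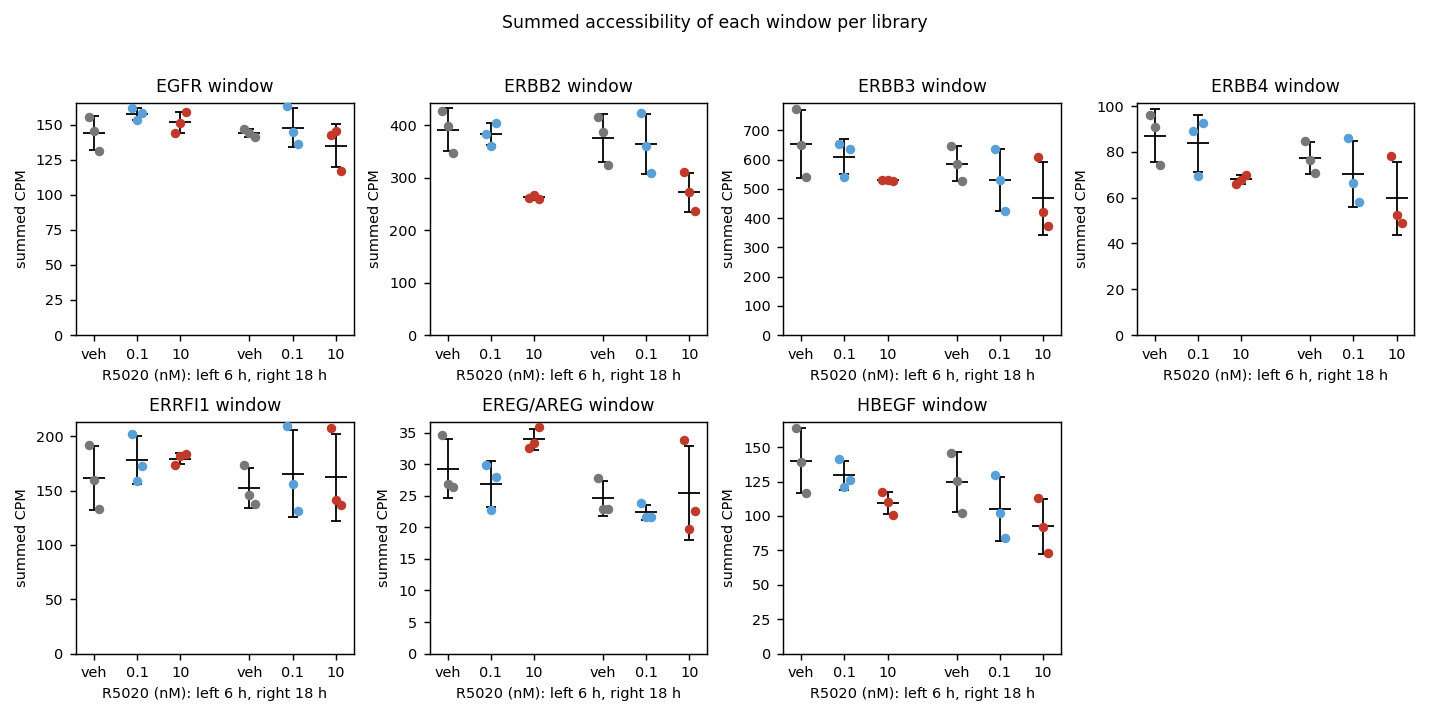
Summed CPM of all regions of each window in every library (points), with the mean and SD of each group of 3, by dose and time. The ERBB2 sums with 10 nM lie below the vehicle sums at both times, while the ERRFI1 and EGFR sums overlap between the groups.

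Summed over a window, ERBB3 and ERBB4 also stood below vehicle with 10 nM at 6 h without overlap, by 19.1% and 21.9%, while at 18 h their sums overlapped vehicle. EGFR, ERRFI1, HBEGF and EREG with AREG overlapped vehicle with 10 nM at both times. With 0.1 nM, each window overlapped vehicle at both times. These sums are weighted to the strongest regions and were not tested.

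Regions that rose with 10 nM at 6 h differed from those that fell in their vehicle level, read from the 18 h vehicle libraries, which that comparison did not use. The median was 0.819 CPM for the 24 that rose, 6.60 CPM for the 19 that fell and 2.67 CPM for the 86 not called. Over all tested regions the medians were 1.19, 5.18 and 2.23 CPM, so the order was not particular to these loci. A region low with vehicle can pass the count filter through the group where it is high, while a fall needs enough vehicle reads to be called. The order can therefore follow in part from the selection, also in the 18 h vehicle libraries, and it was not tested. Median widths were 382.5 bp for the rises, 651 bp for the falls and 488 bp for the rest.

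The likeness of regions was described by Pearson's r of log2 CPM over the 18 libraries, which share the same groups and depths, with no test. For ERRFI1 region 22, the nearest candidate among the 129 regions was ERRFI1 region 18 (r = 0.968). Those nearest to it in the whole table were chr4:139319475-139319861 (0.979), chr18:11925056-11925492 (0.979) and chr1:60234488-60235000 (0.977). For ERBB2 region 7, the nearest candidate of the 129 was ERBB3 region 8 (0.918), which was also the nearest to EGFR region 4 (0.894). For ERBB3 region 2 it was ERBB3 region 6 (0.739). For ERBB4 region 28 (0.812) and EREG/AREG region 11 (0.785), both of low level, the nearest candidate was ERBB3 region 2.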

How the data were processed

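Raw read counts per region were deposited by the authors in 1 table of 18 libraries, without normalization. Per the submitters' processing notes, BWA and MACS2 were used with build hg19. Tool versions, the filtering of reads, whether ends were shifted for Tn5 and how the region list was merged: none of these is given in the sources used here.

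The test was run in edgeR 4.0.16 (R 4.3.3). filterByExpr (minimum count 10, minimum total 15) kept 132304 regions, all 129 described here among them, and removed 300. After TMM scaling, the 6 group means were fitted to the 18 libraries together (glmQLFit, glmQLFTest; 12 residual degrees of freedom). Calls required an adjusted p under 0.05 (Benjamini-Hochberg) over all tested regions. Standard errors are the log2 fold change divided by the square root of F. CPM came from edgeR's cpm function on the TMM-scaled library sizes; log2 CPM used a prior count of 2. With 3 against 3 libraries an exact permutation test cannot go below 0.1, so none was run. The steps were tested on simulated counts.

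The loci, gene list and motifs were chosen with earlier results of these data known. Regions were named by rule: per window, the 2 largest called rises and falls with 10 nM at each time without overlap between groups, and the region with the highest vehicle level; over all windows, the calls with 0.1 nM, the 3 largest dose differences each way, and calls between times. Pairs of replicates differed by more than sampling noise (chi-square per degree of freedom 3.28 to 27.8). Same-numbered libraries deviated together, with every pair's correlation over 0.1, between the doses at 18 h and between the vehicle groups (0.317, 0.121 and 0.446), which is seen in the data only, since no label ties the numbers together. The alternatives were other scalings, filters, thresholds, a replicate block, DESeq2 1.42.0, the share of each library held by the 5000 strongest regions as a covariate, leaving out each library, and, added after seeing the data, leaving out the 2 libraries farthest from their group mean.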

Additional observations from a re-analysis of the deposited data

How the results depend on the processing

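All counts below are of the 129 regions, with the value as reported in parentheses. With an adjusted p under 0.01, falls with 10 nM against vehicle numbered 7 (19) at 6 h and 7 (13) at 18 h, calls with 0.1 nM against vehicle 3 higher (5) and 0 lower (1) at 6 h and 1 higher (4) and 0 lower (1) at 18 h, and calls of 10 nM against 0.1 nM 8 lower (15) at 6 h and 4 higher (7) and 5 lower (8) at 18 h. With an absolute log2 fold change of at least 1, falls with 10 nM against vehicle numbered 9 at 6 h and 7 at 18 h, and those against 0.1 nM 5 at 6 h. With the 5000-region share as a covariate, rises at 18 h numbered 24 (14) against vehicle and 13 (7) against 0.1 nM. In the fit of the compared groups alone, 6 regions fell at 18 h against vehicle, and 4 rose and 2 fell against 0.1 nM. With a mean CPM of at least 1, 12 (19) regions at 6 h and 4 (7) at 18 h were higher with 10 nM than with 0.1 nM. With the replicate number as a block, 2 regions (1) fell with 0.1 nM at 6 h and at 18 h 13 (8) fell below 0.1 nM with 10 nM; the other counts stayed within 1.5 times, apart from the time difference. The time difference of the 10 nM response was called in 1 region (0), ERBB3 region 6, with the block, with the covariate and with DESeq2. Without the 2 libraries farthest from their group mean, an alternative chosen after seeing the data, falls with 10 nM numbered 12 (19) at 6 h and 23 (13) at 18 h, falls with 0.1 nM at 6 h 0 (1), and rises against 0.1 nM at 18 h 4 (7).

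Leaving out 1 library at a time gave 16 to 22 rises and 8 to 16 falls with 10 nM against vehicle at 6 h, and 10 to 18 and 8 to 21 at 18 h. It gave 3 to 5 rises and 0 to 1 falls with 0.1 nM at 6 h, and 1 to 4 and 0 to 1 at 18 h. For 10 nM against 0.1 nM it gave 13 to 18 and 9 to 13 at 6 h, and 4 to 7 and 4 to 11 at 18 h. For the vehicle times and both time differences it gave 0 to 0. HBEGF region 5 changed sign with the covariate, to 0.52 against vehicle (adjusted p = 0.00184, edgeR; -0.35 as reported) and 0.43 against 0.1 nM at 6 h (adjusted p = 0.00551, edgeR; -0.25 as reported); the cause was not tested. Library-size scaling moved the median log2 fold change over all regions with 10 nM from -0.05 to 0.06 at 6 h and from 0.01 to 0.17 at 18 h. Depth limits the weakest regions, where levels under 0.5 CPM rest on few reads.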
